A study of Mus musculus with 15 samples.

Results

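In single-cell RNA sequencing of 15 whole gastrulating mouse embryos, 9 genes were taken as those raised in all 3 *Mesp1* KO embryos. They are *Gm5771* and *Prss1*, *Pilra* and *Pilrb2*, *Cytl1*, *Barhl2*, *Pax8*, *Kcne1* and *Upp1*, 9 of the 38295 genes counted. They were chosen on measured values, by the size of their rise in each KO embryo over the controls of its stage. Their difference between genotypes is therefore given as a description, with no test. Tests were kept to other measures: their relatives (of which *Try4* is not independent of the chosen pair), the genes beside them, their course over gastrulation in controls, and the cell classes that the embryos hold. The course in controls and the cell classes are not independent of the choice either. Of the 9, 6 had a whole-embryo level above every control of the stage in all 3 KO embryos, and *Pilrb2*, *Pax8* and *Kcne1* did not.

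Each embryo was dissociated whole and made into a droplet library of its own from the 5′ ends of transcripts, on a background that the labels give as C57/BL6 and the study's methods as C57BL/6J. The 12 controls carried at least 1 wild-type *Mesp1* allele, and the 3 KO embryos carried *Mesp1* Cre on both alleles, a knock-in that replaces the gene. Both genotypes came from crosses with the *Rosa26R* Ai14 reporter, which marks descendants of *Mesp1*-expressing cells through Cre. They also carried the *Smarcd3*-F6::eGFP transgene at *Hipp11*, which marks cardiac progenitors. The paper also found eGFP in endoderm-like, endothelial, blood and node or notochord cells, and proposes weak or transient expression for some of these. The eGFP-positive cells here are therefore not cardiac progenitors alone, and their make-up by class is not given. Early controls were 3 embryos of E6.0, 1 of late E6.0 and 1 of E6.5, middle controls were single embryos of early E7.5, E7.0 and late E6.5, and late controls were 2 of late E7.5 and 2 of E7.75. The KO embryos were 1 of E6.5 (early), 1 of E7.0 (middle) and 1 of late E7.5 (late), so every stage rests on a single KO embryo, whose spread is assumed to be that of the controls.

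Of 99474 barcodes, 93701 were kept, 77481 from controls and 16220 from KO embryos. The summed UMIs (unique molecular identifiers, 1 per captured molecule) of an embryo lay between 7383353 and 358439911. The loss was uneven, with 255 of 623 barcodes kept in E6.0 control 3, 531 of 901 in late E6.0 and 288 of 432 in E6.0 control 2. The early KO embryo kept 1693 of 1881. E6.0 control 3 and late E6.0 are the only controls in the experiment of that embryo, and their values rest on the barcodes left. *Mesp1* itself matched the labels, with 0, 1 and 5 UMIs in the early, middle and late KO embryo against 26677, 27615 and 12895 UMIs over the controls of those stages. Experiment 5 gave 2 shallow libraries, those of E7.75 control 1 and of the late KO embryo, with a median of 3926 and 3827 UMIs per cell against 14063 to 34415 in the others. In 4 controls (E6.0 control 3, the late E6.0 control, the late E6.5 control and late E7.5 control 1) the pseudogene *Rps2-ps13* stood at 2186 to 2793 CPM (UMIs divided by the library total and scaled to 1e+06), against 1.76 to 33.1 CPM in the other controls and 2.62 to 3.15 CPM in the KO embryos. Up to 3.65% of the cell barcodes of the smaller library of a pair were shared between libraries. Maternal decidua markers summed to 5.004 to 33.5 CPM in controls and 6.63 to 25.2 CPM in KO embryos, and myeloid markers to at most 2.21 CPM, with *Ptprc* at 0 in all KO embryos.

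*Mesp1* encodes a basic helix-loop-helix transcription factor that is switched on in cells leaving the primitive streak and acts in the migration and later development of cardiac mesoderm. The 9 genes are not a pathway. *Prss1* and *Gm5771* are trypsinogen genes, precursors of a digestive protease made in bulk by the acinar cells of the pancreas, and lie in a tandem array of near copies. *Pilra* and *Pilrb2* encode paired receptors best known on myeloid cells, the first inhibitory through tyrosine motifs and the second activating through the adaptor DAP12. *Barhl2* and *Pax8* encode transcription factors of the nervous system and of thyroid and kidney, *Cytl1* a small secreted protein known from cartilage, *Kcne1* an accessory subunit of a potassium channel of heart and inner ear, and *Upp1* uridine phosphorylase, which breaks down uridine.

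In all cells together, 21 of 16997 genes passed an adjusted p of 0.05 between KO and control embryos with stage taken into account (edgeR, quasi-likelihood test), which is 0.124% of those tested. In cells with at least 1 eGFP UMI, 59 of 12352 did so (0.478%), and 33 of them were above the control mean in each KO embryo. This ranking is given only to show how 6 of the 9 came to be chosen, and nothing is read from it. Of these 33, the 5 largest log2 fold changes were those of *Gm5771* (4.36 ± 0.53 SE), *Prss1* (3.397 ± 0.51), *Pilrb2* (3.21 ± 0.55), *Pilra* (3.06 ± 0.49) and *Cytl1* (2.91 ± 0.45). Just below stood *Dapk2* at 2.31 and *Ovol2* at 2.20, which are not among the 9, and then *Upp1* at 2.19. *Kcne1* (2.12 ± 0.70) is not in that ranking, and *Barhl2* and *Pax8* did not pass the filter on low counts in those cells, so 7 of the 9 were fitted. The 9 are therefore not the top of a single ranking. In these cells *Gm5771* was at 3.44 without the late KO embryo and 9.64 with experiment as a covariate, and *Kcne1* at 3.16 without the early KO embryo and 0.68 with experiment as a covariate. Over 23 alternative fits *Prss1* ran from 2.49 to 3.64, *Pilrb2* from 3.01 to 4.06, *Pilra* from 2.74 to 4.86 and *Cytl1* from 2.57 to 3.23. All 9 passed the filter in whole embryos, with log2 fold changes from 1.28 (*Pilra*) to 2.93 (*Barhl2*).

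**Figure D1:**
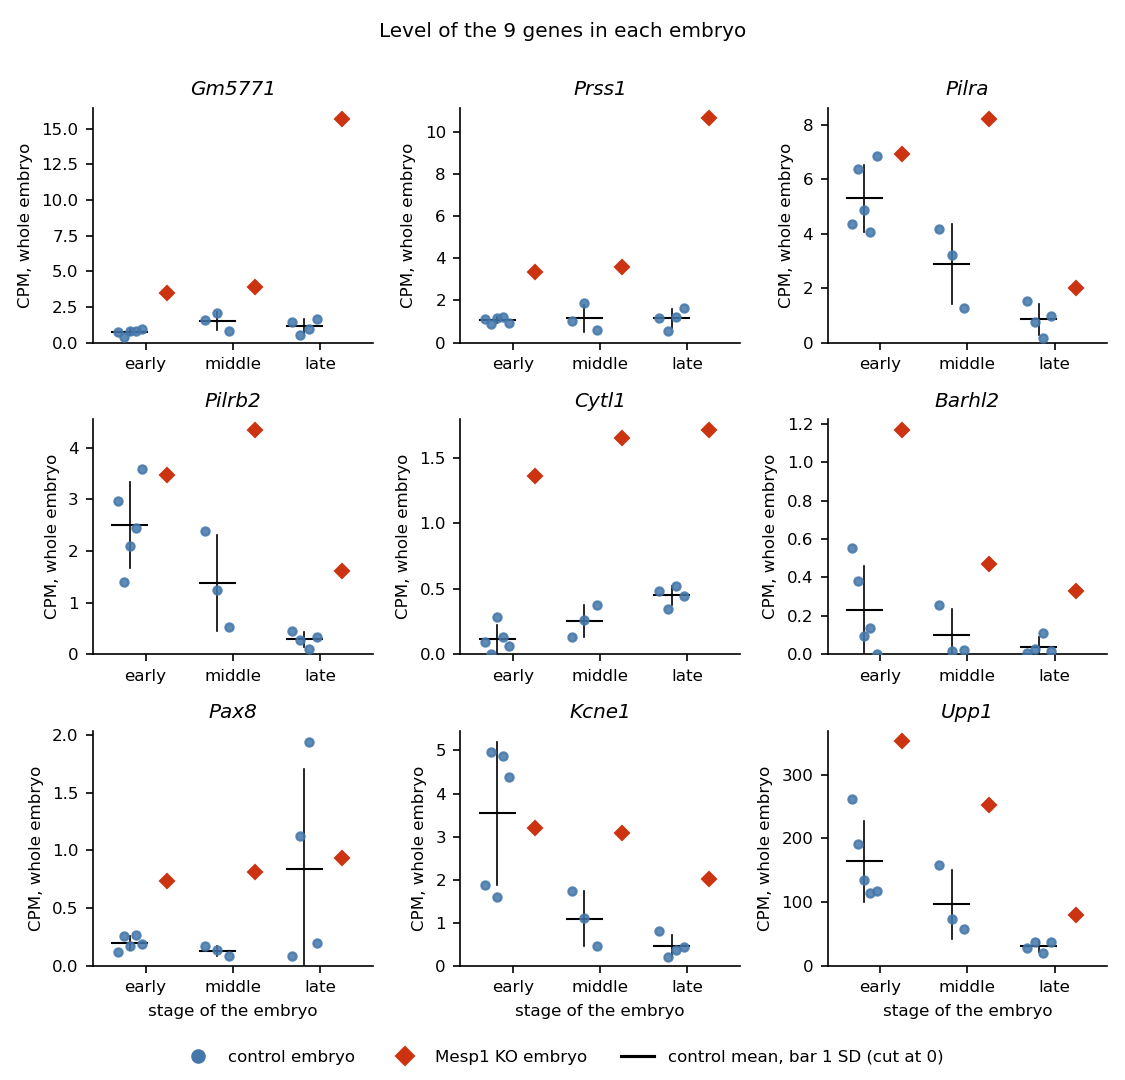
Level of each of the 9 genes (CPM of all retained cells, linear axis from 0) by stage, with 1 point per embryo, circles for the 12 controls and diamonds for the 3 KO embryos. Black lines are control means and bars 1 SD. *Gm5771* and *Prss1* are highest in the late KO embryo (15.7 and 10.6 CPM), and *Kcne1* in the early KO embryo (3.19 CPM) lies inside the range of its controls.

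*Gm5771* and *Prss1* were higher in each KO embryo than in any control. *Gm5771* was at 0.737, 0.382 and 0.813 CPM in E6.0 controls 1 to 3, at 0.927 in late E6.0 and at 0.798 in E6.5, and at 3.50 CPM in the early KO embryo. It was at 1.56, 2.10 and 0.838 CPM in the middle controls (in order of age) and at 3.90 CPM in the middle KO embryo, and at 1.46, 0.564, 0.937 and 1.65 CPM in the late controls and at 15.7 CPM in the late KO embryo. The controls of the 3 stages overlapped one another, and the late KO embryo stood apart from the other 2 KO embryos, with 13.6 times the control mean of its stage against 4.78 and 2.598 times. These levels rest on 162, 158 and 810 *Gm5771* UMIs in the KO embryos.

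*Prss1* was highest in the same embryo. Its controls lay between 0.891 and 1.22 CPM at the early stage, between 0.591 and 1.86 at the middle stage and between 0.569 and 1.63 at the late stage, against 3.37, 3.58 and 10.6 CPM in the KO embryos. That is 3.17, 3.09 and 9.25 times the control mean. Both were also raised in cells without an eGFP UMI, where *Gm5771* was at 3.72, 4.02 and 15.9 CPM in the KO embryos against control means of 0.836, 1.65 and 1.29. Against the controls of the same experiment, *Gm5771* was 4.02 times as high in the early KO embryo (2 younger controls). It was 16.8 times as high in the late one (1 older control), and for *Prss1* the folds were 3.14 and 8.78. Over 24 alternative fits of all cells, the log2 fold change of *Gm5771* lay between 1.87 and 3.42 and that of *Prss1* between 1.68 and 2.84. The late KO embryo is one of the 2 shallow libraries, and the early and middle ones are not.

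The pair lies on chromosome 6 (GRCm38), *Gm5771* at 41392356 to 41397230 and *Prss1* at 41458932 to 41463786, both on the plus strand. Their transcripts were identical at 759 of 776 aligned bases (97.8%), and the windows from 250 bases before to 50 bases after their annotated starts at 273 of 280 (97.5%). *Try4*, another trypsinogen of the array at 41302269 to 41305532, was identical to *Prss1* at 93.0% of transcript bases and 83.7% of window bases. The 3 windows are printed to show how alike they are. They come from RefSeq on GRCm38.p6, plus strand, chr6:41392106-41392405 for *Gm5771*, chr6:41458680-41458979 for *Prss1* and chr6:41302022-41302321 for *Try4*. Capitals mark TATAAA and CACCTG, the second read on either strand (CAGGTG on the reverse).
Gm5771: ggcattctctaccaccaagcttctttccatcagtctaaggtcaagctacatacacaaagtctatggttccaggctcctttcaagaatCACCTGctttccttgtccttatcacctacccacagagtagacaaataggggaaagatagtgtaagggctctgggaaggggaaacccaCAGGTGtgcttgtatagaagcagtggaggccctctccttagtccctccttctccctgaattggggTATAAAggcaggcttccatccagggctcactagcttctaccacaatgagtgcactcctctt
Prss1: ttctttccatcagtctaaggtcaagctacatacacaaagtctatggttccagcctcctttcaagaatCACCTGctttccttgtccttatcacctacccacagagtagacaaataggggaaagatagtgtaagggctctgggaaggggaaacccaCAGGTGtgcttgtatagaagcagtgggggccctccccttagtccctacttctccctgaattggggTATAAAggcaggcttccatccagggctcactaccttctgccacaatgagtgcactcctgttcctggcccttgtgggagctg
Try4: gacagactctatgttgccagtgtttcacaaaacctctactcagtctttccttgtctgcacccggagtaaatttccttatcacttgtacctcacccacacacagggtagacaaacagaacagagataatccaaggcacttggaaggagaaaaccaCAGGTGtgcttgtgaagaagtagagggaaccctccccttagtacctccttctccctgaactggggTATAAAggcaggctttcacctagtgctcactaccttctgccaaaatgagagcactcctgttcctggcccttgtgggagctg
TATAAA began at position -31 from the annotated start in *Prss1* and *Try4* and at -11 in *Gm5771*, and it is present in 13.6% of all 32851 promoter windows of this length. CACCTG is present in 20.2% of them, and was found at 2 positions in *Gm5771* and *Prss1* and at 1 in *Try4*. A match of letters is not a binding site.

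Reads from near copies can be counted for the wrong gene or dropped. Of all stretches of 90 bases in the annotated transcripts, 69.3% in *Gm5771*, 72.6% in *Prss1* and 64.8% in *Try4* were found in no other gene, and at 50 bases 44.6%, 45.1% and 34.4%. The rest were shared with each other or with *Gm10334*, *Prss3*, *Try5* and *Try10*. The read length is not given in the sources used here, and how ambiguous reads were divided between these genes cannot be told from the counts, so each gene's own level is uncertain within the family. Both genes were found together in 247 KO cells, 38.8% of the 637 KO cells with *Prss1* and 33.1% of the 746 with *Gm5771*, where 29.9 cells would hold both if they were independent within embryos. In controls 321 cells held both, against 20.6. A read of one gene counted for the other falls in the same cell, so these counts do not separate shared expression from shared reads. *Prss1* and *Cytl1* shared 6 KO cells, against 9.67.

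Of the other 11 trypsin relatives, 6 had any UMI. *Prss3*, *Gm10334*, *Try5*, *Try10* and *Prss37* had at most 7 UMIs over the embryos of a stage and genotype, and *Try4* alone passed the filter on low counts. *Try4* was at 0 in 4 of 5 early controls and at 0.0307 CPM in E6.0 control 1, and at 0.194 CPM in the early KO embryo. The middle controls lay between 0.0214 and 0.0599 CPM against 0.296 in the KO embryo, and the late controls between 0.0140 and 0.0585 CPM against 0.330. It was thus higher in each KO embryo than in any control, from 9, 12 and 17 UMIs. In edgeR's quasi-likelihood test its log2 fold change was 3.63 ± 0.49 (SE) with an adjusted p of 0.0112 over all genes. *Try4* passed the filter on low counts only narrowly, and through the KO embryos alone, as no control was above 0.0599 CPM. It also shares sequence with the pair. This call is therefore given as a description and is no independent support for their rise. The call was lost when any of the 3 KO embryos was left out (adjusted p between 0.0592 and 0.315), with experiment as a covariate (0.561), with age-matched controls (0.0991) and without the 4 controls high in *Rps2-ps13* (0.0833), while the log2 fold change stayed between 3.41 and 4.52 in these fits. *Try4* no longer passed the filter without the E6.5 control, without any one of the 4 late controls, without experiment 5, with thinned cells and with at most 6300 genes per cell. The call held in 10 of the 16 alternatives in which it could be fitted, with adjusted p from 0.000294 to 0.561 over the 16. Of 36 KO cells with *Try4*, 19 also held *Gm5771* (52.8%).

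None of 7 tested genes of the exocrine pancreas list, which includes the other digestive enzymes, passed in whole embryos (median log2 fold change -0.13, against 0.00 over all genes).

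The cells were sorted into 37 clusters with the 9 genes and all marker genes held out, and 27 clusters were named by marker genes as 16 classes. Levels per class were taken in embryos with at least 10 cells of it. In KO embryos, 68.9% of *Gm5771* UMIs and 63.8% of *Prss1* UMIs were in the definitive endoderm-like class, a single cluster led by *Cer1*, *Sox17*, *Samd3*, *Gm5771* and *Trh*. Another 18.6% and 17.6% were in cluster 5, left unnamed and led by *Pyy*, *Nepn* and *Pax9*. The pooled shares are weighted to the late KO embryo, as cluster 5 held 10, 8 and 192 *Gm5771* UMIs in the early, middle and late KO embryo, and the definitive endoderm-like class 126, 143 and 510. In controls the same 2 groups held 26.6% and 34.5% of *Gm5771* UMIs, and a further 20.04% lay in unnamed cluster 30, led by *Cd8a*, *Hpx* and *Gsn*. Of the control UMIs of *Prss1*, 16.9% were in the definitive endoderm-like class, 30.7% in cluster 5, 23.5% in cluster 30 and 7.56% in node and notochord-like cells. In the streak and nascent mesoderm-like class, KO embryos held 0.708% of *Gm5771* UMIs.

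**Figure D2:**
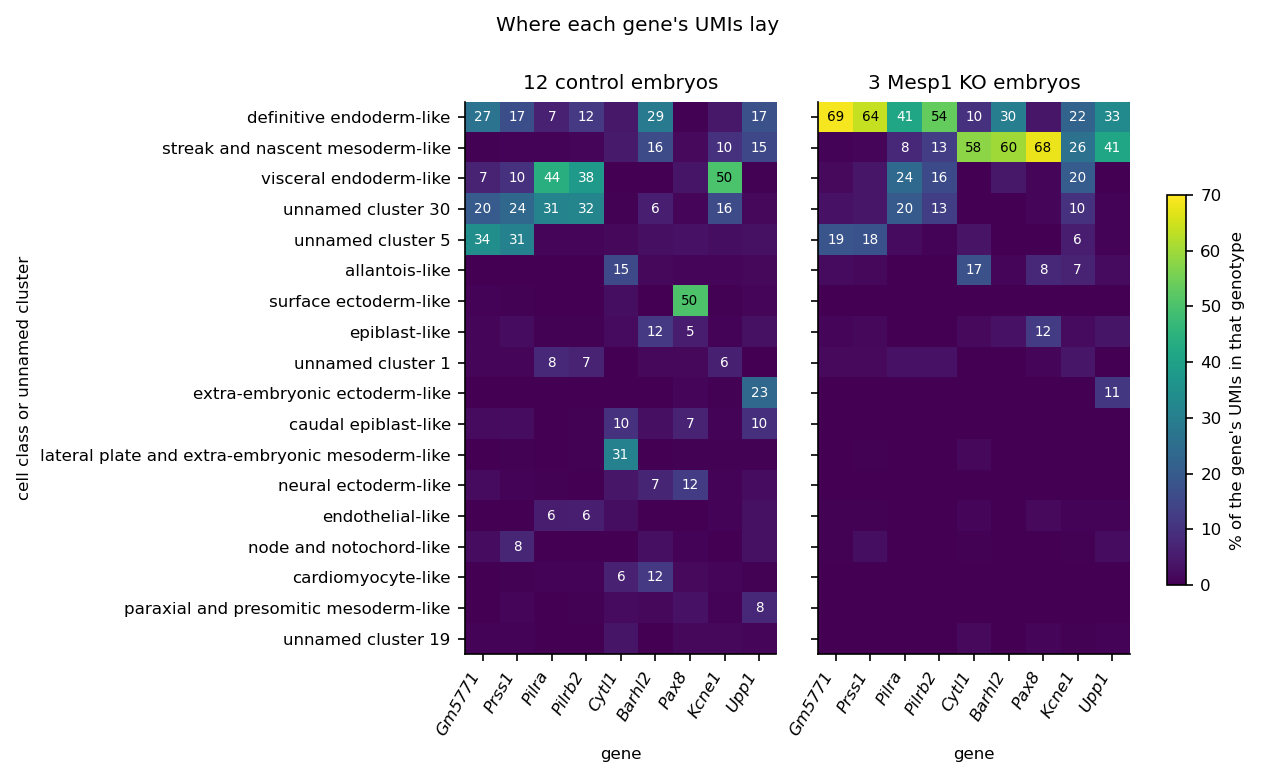
Share of each gene's UMIs (%) that lay in each cell class or unnamed cluster, pooled over the 12 controls (left) and the 3 KO embryos (right), for groups holding over 4% for any gene, with numbers printed from 5% up. The KO columns are brightest in 2 rows: definitive endoderm-like for *Gm5771*, *Prss1*, *Pilra* and *Pilrb2*, and streak and nascent mesoderm-like for *Cytl1*, *Barhl2* and *Pax8*. Shares depend on how many cells of a class the embryos of a genotype hold.

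KO embryos held more definitive endoderm-like cells. They made up 15.9%, 19.0% and 9.89% of cells in the early, middle and late KO embryo, against 1.04% to 6.03% in early controls, 0.921% to 7.98% in middle controls and 0% to 3.398% in late controls. The exact 95% intervals of the KO embryos (14.2% to 17.7%, 17.1% to 21.0% and 9.38% to 10.4%) cover counting error only. The mean difference was 12.04 percentage points, with p = 0.00833 in an exact two-sided permutation test of the embryos within stages, the smallest p that the 120 arrangements allow, and 0.0250 after adjustment over the 3 classes tested. The difference at a finer clustering was 14.1 points. The test was chosen after the members' classes were seen, so it is not independent of the choice of members and its p is given as a description. The adjustment covers 3 of the 16 named classes. The test does not take experiment into account. At the middle stage all 3 controls belong to experiment 7 but the KO embryo to experiment 8, so genotype and experiment cannot be told apart there. Within experiments, the early KO embryo at 15.9% stood beside 2 younger controls (E6.0 and late E6.0) at 1.57% and 3.39%. The late KO embryo at 9.89% stood beside 1 older control (E7.75) at 0.0202%. Age was thus not matched within experiments. The late gap depends on the naming, as cluster 5 was left unnamed with 5 of 6 markers of its closest class raised. Cluster 5 held 1018 cells of the late KO embryo and 837 of that control, beside 1271 and 3 definitive endoderm-like cells. At the finer clustering, a cluster led by *Pyy* and *Gm5771* was named definitive endoderm-like. In whole embryos, *Foxa2*, a transcription factor of endoderm and streak, was the only one of 10 streak and mesendoderm genes past the threshold, with a log2 fold change of 1.21 ± 0.21 and an adjusted p of 0.0437 in edgeR's test, where 0.124% of all genes passed. Like every other call in whole embryos, it was lost with experiment as a covariate, with age-matched controls and without the late KO embryo. *Foxa2* is also a marker by which the definitive endoderm-like class was named, so it is not separate from that class. The median of that list was 1.24, against 0.00 over all genes tested. *Gsc* (2.48 ± 0.70, adjusted p = 0.179), *Eomes* (2.43 ± 0.86, 0.256), *Lhx1* (2.23 ± 0.54, 0.141), *Wnt3* (1.555) and *Mixl1* (1.27) had larger values than *Foxa2* without passing. *Fgf8* (0.86), *Nodal* (0.61), *Evx1* (0.16) and *T* (-0.50) had smaller ones.

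**Figure D3:**
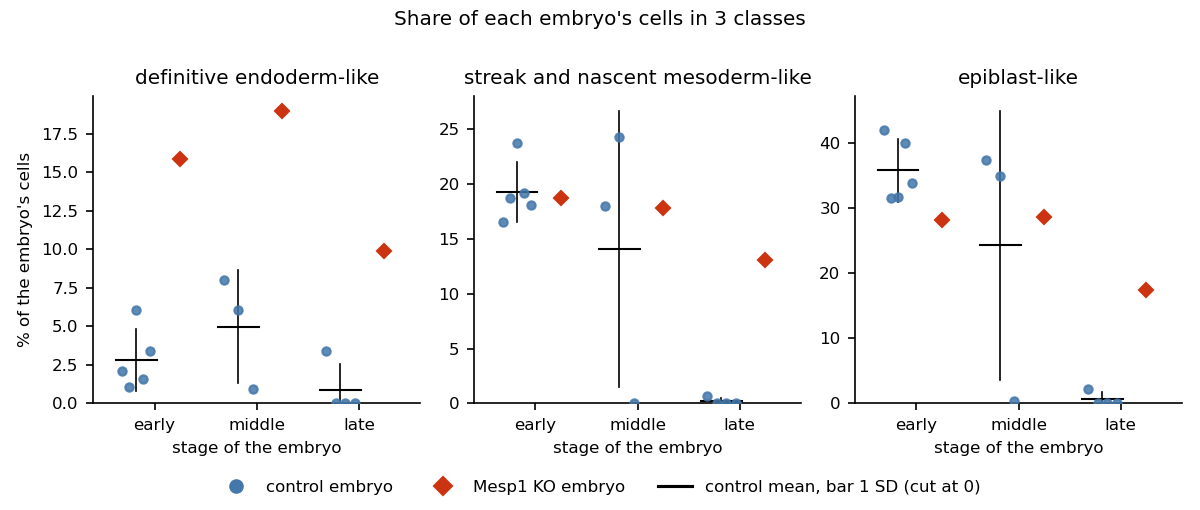
Share of each embryo's retained cells (%, axis from 0) in the definitive endoderm-like, streak and nascent mesoderm-like and epiblast-like classes, 1 point per embryo, circles for controls and diamonds for KO embryos, with control mean and 1 SD. The KO embryos lie above all controls of their stage in the first class (15.9%, 19.0% and 9.89%). The late KO embryo also stands above its controls in the other 2 (13.1% and 17.5%).

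Within definitive endoderm-like cells, the pair differed between stages. *Gm5771* was at 0, 3.57 and 0 CPM in the 3 early controls with at least 10 such cells (E6.0 control 1, E6.5 and late E6.0). The early KO embryo was at 17.4 CPM. The controls at 0 were younger than this embryo and held few such cells, so their levels are uncertain. In the middle controls *Gm5771* was at 11.5, 19.5 and 28.2 CPM, and the middle KO embryo was inside their range at 19.8 CPM. The single late control with enough cells, late E7.5 control 1, was at 18.7 CPM, and the late KO embryo at 100.8 CPM. *Prss1* had the same pattern, with 13.4, 15.4 and 66.0 CPM in the KO embryos against at most 5.28, 16.4 and 9.23 CPM in controls. At the middle stage the KO levels of both genes thus lay inside the control range, although the class share did not.

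To set shares and levels side by side, control levels were weighted by the make-up of the KO embryo. The weight of each named class or unnamed cluster was its share of that embryo's UMIs. For *Gm5771* this gave 0.899, 4.62 and 2.83 CPM at the 3 stages, against 3.50, 3.90 and 15.7 CPM measured in the KO embryos and 0.778, 1.47 and 1.10 CPM in pooled controls. For *Prss1* it gave 1.39, 2.88 and 1.83 CPM, against 3.37, 3.58 and 10.6 CPM measured. The weighted value reached the measured one at the middle stage for *Gm5771* and stayed below it at the other stages and for *Prss1*. Clusters merged into 1 class were not weighted apart, so differences in make-up within a class remain in these values. Cells of 1 class can also differ in age between embryos. The early controls were younger than the E6.5 KO embryo in 4 of 5 cases.

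In the late KO embryo the pair was higher in most named classes. *Gm5771* was above all late controls in 10 of 12 named classes found in both genotypes, the definitive and visceral endoderm-like classes included, as was *Prss1*, against 2 of 9 classes at the early stage and 0 and 2 of 8 at the middle stage. The level of *Gm5771* in the late KO embryo was 1.84 CPM over all named classes other than definitive endoderm-like (visceral endoderm-like cells included), against 0.224 CPM in E7.75 control 1 of the same experiment, and 100.8 CPM in its definitive endoderm-like cells. The ratio of *Gm5771* to *Prss1* UMIs in the late KO embryo was 1.53 in definitive endoderm-like cells, 1.49 in cluster 5 and 1.35 in the other named classes. In E7.75 control 1 it was 0.889 in cluster 5 and 0.471 in the other named classes. The part of free RNA in the droplets in these low levels was not tested.

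**Figure D4:**
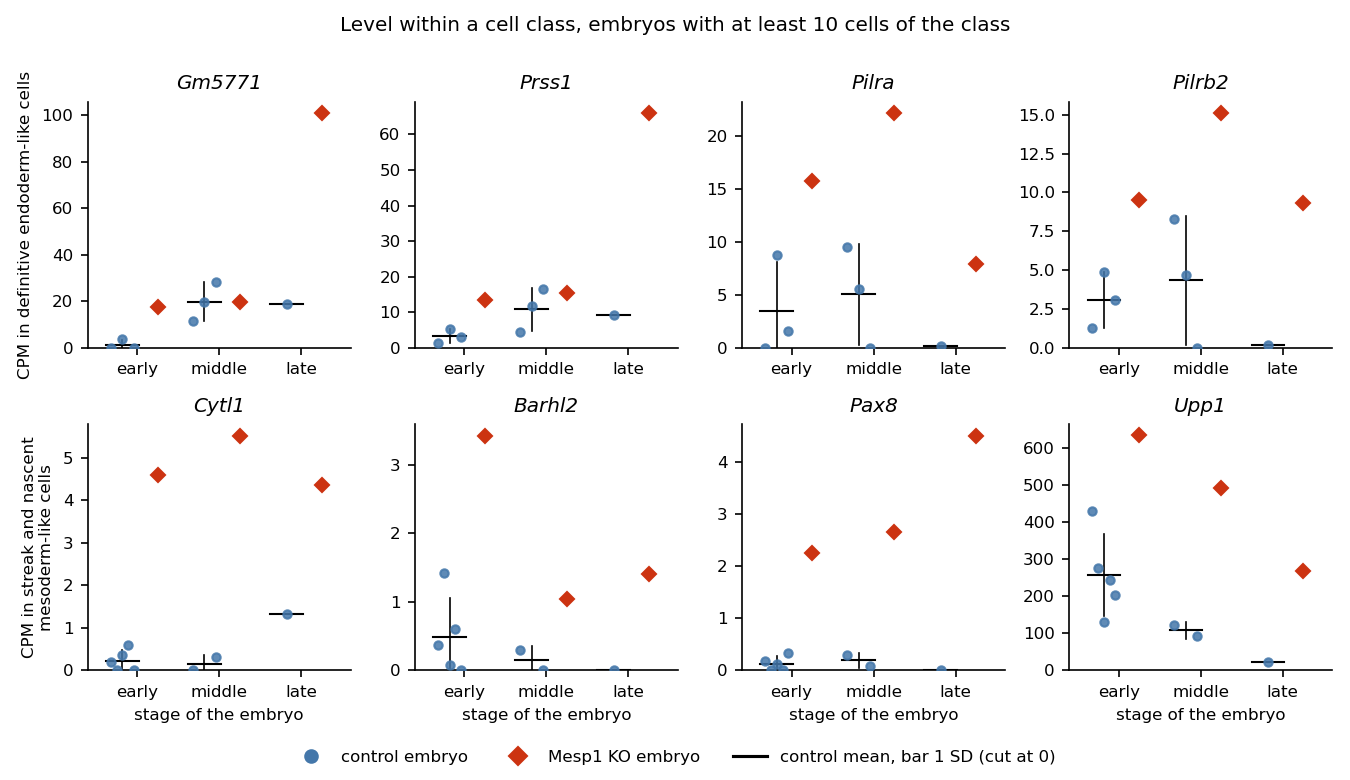
CPM (axes from 0) within definitive endoderm-like cells for *Gm5771*, *Prss1*, *Pilra* and *Pilrb2* (top) and within streak and nascent mesoderm-like cells for *Cytl1*, *Barhl2*, *Pax8* and *Upp1* (bottom), 1 point per embryo with at least 10 cells of the class, with control mean and 1 SD. At the middle stage the KO diamond lies among the controls for *Gm5771* (19.8 CPM) and *Prss1* (15.4 CPM) and above them for the other 6 genes. The late stage has 1 control with enough cells in either class.

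*Pilra* and *Pilrb2* stood above every control at the middle and late stages, and at the early stage they met or overlapped the controls. *Pilra* was at 4.36, 6.37 and 4.06 CPM in E6.0 controls 1 to 3, at 6.86 in late E6.0 and 4.87 in E6.5, and at 6.95 CPM in the early KO embryo, hardly above the highest. It was at 4.18, 3.22 and 1.27 CPM in the middle controls against 8.24 CPM, and at 1.55, 0.759, 0.162 and 0.976 CPM in the late controls against 2.02 CPM. *Pilrb2* was at 2.98, 1.40, 2.44, 3.58 and 2.10 CPM in the same early controls and at 3.47 CPM in the early KO embryo, below the late E6.0 control. In the middle and late KO embryos it was at 4.34 and 1.61 CPM, above the highest controls of 2.38 and 0.449 CPM. The folds over the control mean were 1.31, 2.85 and 2.34 for *Pilra* and 1.39, 3.14 and 5.58 for *Pilrb2*.

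Within the experiment of the early KO embryo, *Pilra* was 1.27 times and *Pilrb2* 1.15 times the mean of 2 younger controls. Within that of the late one, both were far higher than in the single, older control (12.5 and 16.6 times), which held 10 and 6 UMIs of them. In eGFP-positive cells the pair was above all controls at each stage, at 4.68, 6.26 and 3.81 CPM for *Pilra* against control means of 0.732, 0.591 and 0.537. That is 6.40, 10.6 and 7.10 times the control mean for *Pilra* in these cells, and 6.15, 10.6 and 10.7 times for *Pilrb2*. The late KO values rest on 9 and 7 UMIs, and the *Pilrb2* controls on 11 UMIs in all at both the early and the middle stage. Both genes were ranked for the choice in these cells, so these folds are not set against those of whole embryos.

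The Pilr genes stand next to each other on the minus strand of chromosome 5, *Pilra* at 137821952 to 137836281, *Pilrb1* at 137852147 to 137858106 and *Pilrb2* at 137865827 to 137871815. Their start windows were nearly identical, at 244 of 246 aligned bases between *Pilra* and *Pilrb2* (99.2%) and at 292 of 300 between *Pilrb1* and *Pilrb2* (97.3%). The transcripts differed more, with 72.9% identity between *Pilra* and *Pilrb2* and 87.9% between *Pilrb1* and *Pilrb2*. At 90 bases, 98.9% of the stretches of *Pilra*, 94.4% of *Pilrb1* and 95.7% of *Pilrb2* were unique to the gene. At 50 bases the shares were 92.4%, 69.95% and 70.8%, and within the first 300 bases 75.3%, 63.75% and 62.55%. As the read length is not given, reads of these genes may also have been counted for one another. The windows of the 3 genes are printed for this likeness, from RefSeq on GRCm38.p6, minus strand, chr5:137836229-137836528 for *Pilra*, chr5:137871709-137872008 for *Pilrb2* and chr5:137858000-137858299 for *Pilrb1*. None holds TATAAA or CACCTG on either strand, so no letters are in capitals.
Pilra: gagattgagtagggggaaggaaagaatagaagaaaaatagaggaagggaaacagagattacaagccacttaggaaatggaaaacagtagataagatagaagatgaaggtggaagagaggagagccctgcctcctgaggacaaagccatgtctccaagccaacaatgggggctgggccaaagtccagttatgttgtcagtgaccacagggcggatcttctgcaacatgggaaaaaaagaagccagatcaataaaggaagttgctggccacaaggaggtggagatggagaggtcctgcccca
Pilrb2: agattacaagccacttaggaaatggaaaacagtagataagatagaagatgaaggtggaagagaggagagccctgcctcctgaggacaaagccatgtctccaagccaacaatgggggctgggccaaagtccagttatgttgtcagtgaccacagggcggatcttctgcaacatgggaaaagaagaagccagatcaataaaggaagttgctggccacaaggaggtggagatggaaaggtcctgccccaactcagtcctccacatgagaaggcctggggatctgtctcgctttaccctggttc
Pilrb1: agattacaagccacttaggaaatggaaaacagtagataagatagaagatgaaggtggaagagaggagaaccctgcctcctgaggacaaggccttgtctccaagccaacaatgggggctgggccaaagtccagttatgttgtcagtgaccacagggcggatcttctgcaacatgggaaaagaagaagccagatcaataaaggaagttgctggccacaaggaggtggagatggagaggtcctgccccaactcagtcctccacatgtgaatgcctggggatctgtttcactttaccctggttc
The motif AGATAA, found in 11.2% of all windows, was present once in each of the 3, and so was AGATAG, found in 8.95%, with its first base on the last of AGATAA.

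*Pilrb1*, which is not among the 9, was higher in each KO embryo than in any control of its stage, at 3.06, 2.76 and 0.931 CPM against at most 2.90, 1.91 and 0.344 CPM. In edgeR's test its log2 fold change of 1.59 ± 0.51 did not pass (adjusted p = 0.221). *Pilra* and *Pilrb2* were found together in 117 KO cells, 27.7% of the cells with *Pilra* and 38.7% of those with *Pilrb2*, where 22.3 would be expected of independent genes. None of 4 tested genes of PILR signalling and ligands passed in whole embryos (median log2 fold change -0.19).

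In controls the Pilr genes lay mainly in visceral endoderm-like cells and cluster 30. Of their control UMIs, 44.2% for *Pilra* and 37.7% for *Pilrb2* were in the visceral endoderm-like class, and 31.3% and 32.0% in cluster 30. In KO embryos the definitive endoderm-like class held the most, 41.3% of *Pilra* and 53.6% of *Pilrb2*. *Pilra* in that class was at 0, 8.71 and 1.52 CPM in the early controls against 15.7 CPM in the KO embryo, at 9.53, 5.55 and 0 CPM in the middle controls against 22.1 CPM, and at 0.192 CPM in the single late control against 7.91 CPM. *Pilrb2* was at most 4.85, 8.31 and 0.192 CPM in these controls against 9.51, 15.1 and 9.29 CPM. Both exceeded every control at each stage there.

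In visceral endoderm-like cells, by contrast, *Pilra* was at 25.3, 13.1 and 6.15 CPM in the KO embryos and between 11.3 and 25.5, 7.14 and 23.4, and 1.04 and 10.2 CPM in the controls, inside their range at each stage. *Pilrb2* was there at 11.4, 3.28 and 1.54 CPM, also inside. In streak and nascent mesoderm-like cells *Pilra* was at 0.882, 3.10 and 3.51 CPM in the KO embryos against at most 0.595, 0.489 and 0 CPM in the controls, and *Pilrb2* at 1.08, 2.53 and 2.81 CPM against at most 0.331, 0.391 and 0 CPM. *Pilra* was listed at 0 in KO endothelial-like cells (223 cells) and at 3.78 CPM in the pooled control ones.

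*Cytl1*, *Barhl2* and *Pax8* were raised in the streak and nascent mesoderm-like class. This class comprises clusters 10 and 18, led by *Lefty2*, *Mesp1* and *Mesp2*, and 1426 of its 2302 KO cells were in cluster 18, 1352 of them from the late embryo. It held 57.8% of KO UMIs of *Cytl1*, 60% of *Barhl2* and 67.8% of *Pax8*, against 4.95%, 15.9% and 1.69% of the control UMIs. The class itself made up 18.8%, 17.8% and 13.1% of the KO embryos, 16.6% to 23.8% of early controls, 0.0512% to 24.3% of middle controls and 0% to 0.709% of late controls. The mean difference in share was 5.38 points (exact two-sided permutation test, p = 0.308, adjusted 0.463), and at the early and middle stages the KO embryos lay inside the control range.

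*Cytl1* was at 0.0921, 0 and 0.135 CPM in E6.0 controls 1 to 3, 0.0618 in late E6.0 and 0.283 in E6.5, and at 1.36 CPM in the early KO embryo. The middle controls were at 0.129, 0.262 and 0.374 CPM against 1.65 CPM, and the late controls at 0.486, 0.349, 0.517 and 0.442 CPM against 1.71 CPM. The 3 KO embryos were close to each other and above every control, at 11.9, 6.48 and 3.81 times the control mean. In the streak and nascent mesoderm-like class *Cytl1* was at 4.61, 5.52 and 4.35 CPM in the KO embryos against at most 0.595, 0.299 and 1.31 CPM in the controls.

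In controls the classes with the largest shares of *Cytl1* UMIs were cells like lateral plate or extra-embryonic mesoderm (30.8%) and allantois-like cells (15.5%). The late KO embryo was there at 4.28 CPM (from 3 UMIs) and 3.395 CPM, against 1.95 to 5.08 and 0.518 to 2.06 CPM in late controls. In eGFP-positive cells *Cytl1* was at 3.55, 3.87 and 2.96 CPM in the KO embryos against control means of 0.353, 0.482 and 0.703. The gene lies at 37735519 to 37739820 on chromosome 5.

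*Barhl2*, at 106452523 to 106458166 on chromosome 5, was scarce in every embryo, with 54, 19 and 17 UMIs in the KO embryos. It was at 0.553, 0.382 and 0.135 CPM in E6.0 controls 1 to 3, 0 in late E6.0 and 0.0944 in E6.5, and at 1.17 CPM in the early KO embryo. The middle controls were at 0.257, 0.0154 and 0.0225 CPM against 0.469 CPM, and the late controls at 0.00748, 0.0251, 0.113 and 0.0146 CPM against 0.330 CPM. Every KO embryo was above every control of its stage. In streak and nascent mesoderm-like cells it was at 3.43, 1.03 and 1.41 CPM in the KO embryos against at most 1.42, 0.293 and 0 CPM in the controls. In definitive endoderm-like cells the highest value was that of a control, 16.2 CPM from 13 UMIs in 31 cells of E6.0 control 1, against 2.21 CPM in the early KO embryo.

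*Pax8* lay mainly in another class in late controls. It was at 0.123, 0.255 and 0.271 CPM in E6.0 controls 1 to 3, 0.185 in late E6.0 and 0.168 in E6.5 against 0.734 CPM in the early KO embryo, and at 0.171, 0.139 and 0.0823 CPM in the middle controls against 0.814 CPM. The late controls were at 0.0822, 1.13, 1.94 and 0.197 CPM, so the late KO embryo at 0.931 CPM lay among them. In controls 50.4% of *Pax8* UMIs were in surface ectoderm-like cells, at 14.01 CPM in late E7.5 control 2 and 16.4 CPM in E7.75 control 1, where the 100 such cells of the late KO embryo had none. In streak and nascent mesoderm-like cells *Pax8* was at 2.25, 2.64 and 4.50 CPM in the KO embryos and at most 0.331, 0.293 and 0 CPM in the controls. The late comparison rests on 1 control with 48 such cells and no *Pax8* UMI.

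Of the other lists around these genes, none of 6 tested kidney and thyroid regulators beside *Pax8* passed in whole embryos (median log2 fold change 0.40), nor did the only *Pax2/5/8* relative tested (-1.51). *Barhl1* did not pass the filter. Both transcription factor genes have CACCTG in their start windows, *Barhl2* at 2 positions and *Pax8* at 1, against 20.2% of all windows. *Cytl1* had none of the motifs searched, on either strand, which were the TATA box and E-box given above, TGTTTA (read by forkhead factors) and the AGATAA and AGATAG pair (read by GATA factors).

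*Upp1* was raised in many classes. It was at 262, 192, 114, 118 and 135 CPM in the early controls (E6.0 controls 1 to 3, late E6.0 and E6.5) and at 352 CPM in the early KO embryo. It was at 158, 73.6 and 57.7 CPM in the middle controls against 253 CPM and at 27.4, 37.1, 20.4 and 37.9 CPM in the late controls against 79.2 CPM. Each KO embryo was above every control of its stage, 2.15, 2.63 and 2.58 times the control mean, and the late KO embryo was within the range of the middle controls. Within experiments the ratio was 3.04 over younger controls and 3.88 over an older one. Over 24 alternative fits of all cells its log2 fold change lay between 1.28 and 1.74.

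By class, 41.3% and 33.4% of the KO UMIs of *Upp1* were in streak and nascent mesoderm-like and definitive endoderm-like cells. In the first, it was at 634 and 269 CPM in the early and late KO embryos against at most 430 and 21.0 CPM in the controls, and the middle KO embryo was also above its 2 controls (123 and 91.7 CPM). In the second, the early and middle KO embryos, at 744 and 557 CPM, lay inside the range of the controls (719 to 1286 and 50.8 to 587 CPM), and the late KO embryo at 162 CPM was above the single control at 116 CPM. In extra-embryonic ectoderm-like cells, which held 23.3% of control UMIs, it was at 590 and 518 CPM in the early and middle KO embryos, against 542 to 895 and 209 to 431 CPM in the controls. *Upp1* was above all controls in 5 of 9, 6 of 8 and 9 of 12 classes at the 3 stages. None of 10 tested genes of uridine and pyrimidine salvage passed, with a median log2 fold change of -0.16.

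*Kcne1* stood above its controls at the middle and late stages and not at the early one. It was at 1.87, 4.97 and 4.88 CPM in E6.0 controls 1 to 3, 4.39 in late E6.0 and 1.60 in E6.5. The early KO embryo was at 3.19 CPM, inside that range and 0.690 times the younger controls of its experiment. *Kcne1* was at 1.74, 1.10 and 0.457 CPM in the middle controls against 3.08 CPM. In the late controls it was at 0.807, 0.218, 0.371 and 0.4497 CPM against 2.02 CPM. In controls 50.3% of its UMIs were in visceral endoderm-like cells and 16.2% in cluster 30, against 20.4% and 10.1% in the KO embryos. In definitive endoderm-like cells it was at 3.86, 5.26 and 3.56 CPM in the KO embryos, above the highest controls of 0.428, 3.18 and 2.31 CPM. None of 2 tested genes of the Kcne family and its channel partner passed in whole embryos (median log2 fold change 0.49).

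Control levels weighted by the classes and unnamed clusters of the KO embryos, as above, were below the measured KO level of these 7 genes at each stage. They rest on pooled controls, in which large libraries weigh most: for *Kcne1* at the early stage the weighted value was 1.90 CPM and the pooled one 2.25 CPM, but the mean over the 5 control embryos was 3.54 CPM, above the 3.19 CPM of the KO embryo. For *Cytl1* they were 0.306, 0.258 and 0.579 CPM against 1.36, 1.65 and 1.71 CPM measured, and for *Pax8* 0.132, 0.146 and 0.337 CPM against 0.734, 0.814 and 0.931 CPM. For *Upp1* they were 258, 117 and 27.2 CPM against 352, 253 and 79.2 CPM, where the pooled controls had 161, 79.4 and 34.6 CPM. For *Pilra* they were 4.92, 3.91 and 0.552 CPM against 6.95, 8.24 and 2.02 CPM. *Pax8* lies at 24420560 to 24475599 on chromosome 2, *Kcne1* at 92345982 to 92359468 on chromosome 16 and *Upp1* at 9118103 to 9136170 on chromosome 11.

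Over gastrulation in controls, 4 of the 9 fell and 1 rose from early to late embryos. The control levels of each stage entered the choice of members, so this contrast is not independent of it. In edgeR's quasi-likelihood test 2840 of 17833 genes passed (15.9%). *Upp1* fell by 2.23 ± 0.32 on the log2 scale (adjusted p = 0.00461), *Pilrb2* fell by 2.97 ± 0.48 (0.00464), *Pilra* fell by 2.51 ± 0.48 (0.00712) and *Kcne1* fell by 2.74 ± 0.55 (0.00887). *Cytl1* rose by 1.78 ± 0.53 (0.0413), a call lost in 11 of 15 alternatives (adjusted p from 0.00986 to 0.101). *Gm5771* (0.81), *Prss1* (0.33), *Pax8* (2.59) and *Barhl2* (-2.59) did not pass, with adjusted p of 0.162, 0.593, 0.0748 and 0.153. Between middle and early controls 1 of 17833 genes passed (0.00561%), and none of the 9.

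The late KO embryo differed from its controls in the cells it held. There were 17.5% epiblast-like and 13.1% streak and nascent mesoderm-like cells, against at most 2.22% and 0.709% in late controls, and its levels of *Upp1* and *Pilra* (79.2 and 2.02 CPM) lay within those of the middle controls (57.7 to 158 and 1.27 to 4.18 CPM). The difference of genotype and a difference of developmental progress cannot be told apart in a single late KO embryo. In a whole-embryo sum, more cells of a type and more RNA per cell cannot be told apart either, which is why the levels per class are given above. *Gm5771*, *Prss1* and *Cytl1* in the KO embryos were above the controls of all 3 stages, the highest of which were 2.10, 1.86 and 0.517 CPM.

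The genes that most resembled a member over the 16 classes in controls were found by Pearson's r of the mean log2(CPM + 1) per class, among 12450 genes. They were *Dpyd* (0.957), *Fzd8* (0.949) and *Spdef* (0.941) for *Gm5771*, and *Foxa1* (0.973), *Srd5a2* (0.929) and *Dpyd* (0.928) for *Prss1*. For *Pilra* they were *Pilrb2* (0.968), *Tmem27* (0.932) and *Clic6* (0.929), for *Pax8* *Dlx2* (0.940), *Dlx6* and *Tfap2a* (both 0.913), for *Kcne1* *Slc6a4* (0.965), and for *Upp1* *Cnot8* (0.851). The points are classes of the same libraries, and the values are a description. *Cytl1* and *Barhl2* were too low for this.

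The genes beside the members bear on whether KO and control embryos differed over a stretch of chromosome rather than at single genes. Taken were the 10 nearest protein-coding genes on each side of the members, of *Mesp1* and of the genes flanking *Rosa26* and *Hipp11*. Of these 197, 149 were tested. Only *Try4*, which entered the test through the KO embryos alone, passed, with the limits given above, against 0.124% of all genes. With 20 genes on each side it was again 1, of 291. At an unadjusted p under 0.05, 24 of the 149 and 2306 of all 16997 genes were found, and the median log2 fold change of the 149 was -0.05. By locus this ran from 1 of 18 beside *Mesp1* to 5 of 18 beside *Cytl1*, whose neighbours had log2 fold changes from -1.79 to 1.57. DESeq2, which called 612 genes in all, called 7 of these neighbours. At the trypsin array 4 of the 19 neighbours of *Gm5771* could be tested. *Upp1* lies 5.9 Mb from the genes that flank *Hipp11* on chromosome 11, *Gm5771* and *Prss1* lie 71.6 Mb from those at *Rosa26* on chromosome 6, and no member is on chromosome 7 with *Mesp1*. No sequence variants were read here, so differences in the sequence of the embryos were not tested.

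**Figure D5:**
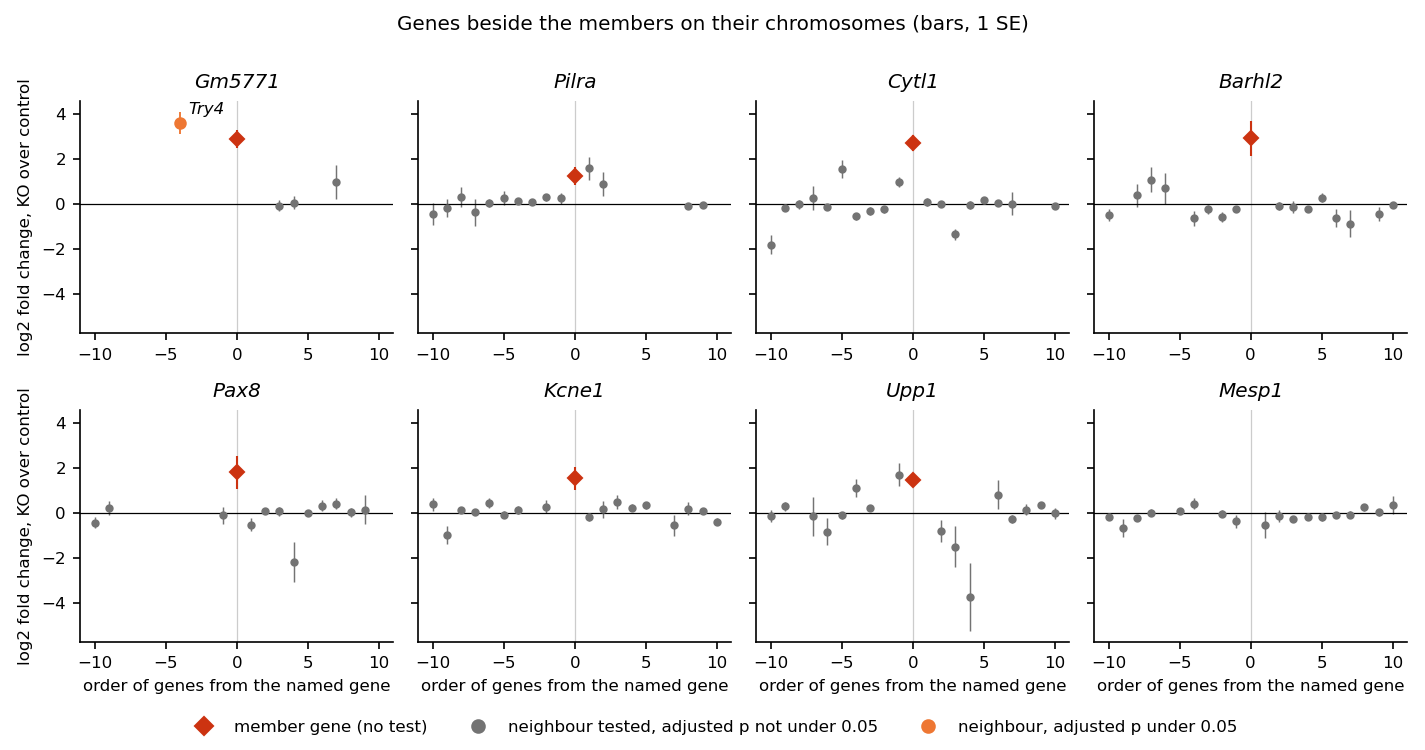
Log2 fold change (KO over control, whole embryos, bars 1 SE) of the up to 10 nearest protein-coding genes on each side of 7 members and of *Mesp1*, in their order on the chromosome, with the member as a diamond at 0. Genes that could not be tested are gaps. Among the neighbours *Try4* alone passed the threshold. The others lie on both sides of 0, from -1.79 to 1.57 beside *Cytl1*, and *Pilrb1* stands at 1.59.

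With the experiment as a covariate, with age-matched controls or without the 2 libraries of experiment 5, no gene of the whole table passed. Over the alternatives fitted the log2 fold change in whole embryos was lowest at 0.39 for *Pax8* and 0.63 for *Kcne1*, and its sign is no sign of stability, since the choice of members fixed it.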

How the data were processed

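Each of 15 embryos gave 1 library of a 5′ single-cell kit (version 1). The authors deposited raw UMI counts per gene and barcode, made with Cell Ranger 3.0.2 on mm10, per the labels. Read length and the handling of ambiguous reads are not given in the sources used here. Barcodes with at least 10% mitochondrial UMIs, 50000 or more UMIs, or under 200 or over 7000 genes were left out. No doublet caller was run. The 9 genes and all lists were chosen with earlier results of these data known.

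Cells are not replicates, so UMI counts were summed per embryo. edgeR 4.0.16 (quasi-likelihood test, TMM scaling, filterByExpr, R 4.3.3) was fitted over all genes with stage as a covariate, and adjusted p-values are Benjamini-Hochberg values with a threshold of 0.05. Nothing in the labels says more about the source of the embryos, so p-values measure the spread between them. In simulated counts with the whole-embryo design (16603 genes), 45.8% of 2-fold and 76.0% of 4-fold changes were recovered. Cells were clustered with leidenalg 0.10.2 (2000 variable genes, 50 components, 20 neighbours, resolution 1), with members, list genes and markers held out, so class names were rebuilt here from marker genes. Intervals of shares are exact binomial 95% intervals, and the test of class shares was chosen after the data were seen. Genes were named by a rule: the 9 members, relatives with UMIs, and list genes or neighbours past the threshold, and for each member the 3 most similar genes, some of which are shown. The streak and mesendoderm list was named in full, outside this rule. The authors' mm10 and the GENCODE annotation used for positions share the assembly GRCm38. Start windows were taken from RefSeq, which had none for *Kcne1*. Alternatives were another tool (DESeq2 1.42.0), filters, thinning to 2000 UMIs per cell, experiment as a covariate, age-matched controls and embryos left out.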

Additional observations from a re-analysis of the deposited data

Results flagged for a closer look

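Among 22 groups of 4 or 5 control embryos examined for a value far from the others, 2 held one, where chance flags about 1 in 20. *Barhl2* in E7.75 control 1 was at 0.113 CPM, against 0.00748 to 0.0251 CPM in the other late controls. *Try4* in E6.0 control 1 was at 0.0307 CPM, which is 1 UMI, and at 0 in the other early controls.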

How the results depend on the processing

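No paired analysis was possible because the replicate numbers restart at each age and the 3 KO embryos all carry the number 1. The experiment number, which joins the early KO embryo to 2 controls and the late one to 1, was used as a covariate instead. Beside the 21, 59 and 14 genes called in all, eGFP-positive and eGFP-negative cells, DESeq2 called 612, 530 and 579. The counts were 0, 0 and 0 with experiment as a covariate, with age-matched controls and without the 2 libraries of experiment 5. They were 13, 24 and 9 with cells thinned to 2000 UMIs and 3, 39 and 3 without the 4 controls high in *Rps2-ps13*, and a minimum of 2 eGFP UMIs left 25 in eGFP-positive cells. The 1 relative and the 1 neighbour called, both *Try4*, fell to 0 under those settings of all cells other than DESeq2, which called 7 neighbours, and with at most 6300 genes per cell. Thinning took the 2840 genes between late and early controls to 783 and the 1 between middle and early to 0, where DESeq2 called 211. Only *Prss1* between middle and early controls changed sign, to -0.70 when thinned and to -0.37 without middle control replicate 2 (range -0.37 to 0.45 with single embryos left out), and it had not passed. With single embryos left out, the counts ran from 0 to 35 in all cells, 3 to 155 in eGFP-positive and 0 to 21 in eGFP-negative cells, 0 to 1 for relatives, 0 to 2 for neighbours, 1387 to 3199 between late and early controls and 0 to 391 between middle and early. In all cells 2, 1 and 0 genes were called without the early, middle and late KO embryo, and 391 between middle and early controls without the E6.5 control. The fall of *Upp1*, *Pilra*, *Pilrb2* and *Kcne1* from early to late controls stayed past the threshold in 16 of 16 alternatives. The causes were not tested. Depth limits *Try4*, *Barhl2* and *Pax8* most, with 9 to 54 UMIs per KO embryo.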
